A study of Mus musculus with 12 samples.

Results

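The 9 genes described here, Shank1, Shank2, Shank3, Dlg1, Dlg2, Dlg3, Dlg4, Homer1 and Dlgap1, encode scaffold proteins of the excitatory postsynapse. They were chosen by name, with earlier results of these data known, from the 47729 genes with deposited estimated counts. All 9 passed the filter on low counts. No member was called different between anxiety groups, or related to a behavior measure, at an adjusted p under 0.05. The members with the lowest unadjusted p were Dlg2, which was lower in more anxious than in less anxious mice, and Dlg4 and Shank1, which were higher. Dlg4 was also lower, and Dlg2 higher, in mice that spent more time in the open arms of a maze.

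Amygdala RNA came from 12 female mice of the inbred strain C57/BL6, with no transgene, deletion or drug in any group and 1 library per mouse. The mice took the elevated plus maze at 9 weeks of age, the light/dark box at 10 weeks and the three-chamber social interaction test at 11 weeks. The labels give a predicted anxiety state of less anxious to 3 mice (3, 7 and 12), anxious to 4 (1, 4, 8 and 11) and more anxious to 4 (2, 6, 9 and 10), and no state to mouse 5, which entered no group. The authors derived these states from the second principal component of the same libraries, so a comparison of the groups is not independent of expression, whereas the behavior measures were taken on the animals. They used that component because it correlated with the maze and light/dark measures. The groups and those measures are therefore linked by that choice and are not separate evidence. All mice went through the same tests and no unexposed group was sequenced.

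Excitatory synapses on dendritic spines carry a dense protein lattice beneath the membrane, the postsynaptic density, which holds glutamate receptors opposite the release sites. Dlg proteins, the membrane-associated guanylate kinases, bind receptors and channels through their PDZ domains. Dlgap1 (GKAP) links the Dlg proteins to the Shanks, and Homer1 joins the Shanks to metabotropic glutamate receptors and to calcium stores. In the amygdala, excitatory synapses of this kind take part in fear learning.

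Reference promoters were available for 7 of the 9 members (RefSeq, GRCm38.p6), and 4 of their 17 windows are shown here, each the 250 bases before a transcript start on the plus strand. Homer1 is shown because it is the member that also gives an activity-induced short form. Shank3 is shown as the window with the highest GC content, since base composition recurs in the comparisons below, and Dlg2 and Dlg4 as the members with the lowest unadjusted p. Capitals mark TGACGT, the core of the cAMP response element, in Homer1 and the GC box GGGCGG in the other 3, either motif on either strand.
Homer1, chr13:93303507-93303756: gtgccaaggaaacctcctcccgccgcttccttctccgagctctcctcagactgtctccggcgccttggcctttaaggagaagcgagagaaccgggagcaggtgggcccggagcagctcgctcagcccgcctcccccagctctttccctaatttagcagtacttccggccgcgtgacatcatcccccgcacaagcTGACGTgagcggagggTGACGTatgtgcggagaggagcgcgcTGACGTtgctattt
Shank3, chr15:89499358-89499607: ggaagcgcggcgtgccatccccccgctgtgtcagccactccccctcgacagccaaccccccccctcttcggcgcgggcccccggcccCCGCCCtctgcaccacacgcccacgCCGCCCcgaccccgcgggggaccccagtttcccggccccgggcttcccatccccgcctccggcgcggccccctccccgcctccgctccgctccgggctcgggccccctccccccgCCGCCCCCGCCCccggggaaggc
Dlg2, chr7:91090536-91090785: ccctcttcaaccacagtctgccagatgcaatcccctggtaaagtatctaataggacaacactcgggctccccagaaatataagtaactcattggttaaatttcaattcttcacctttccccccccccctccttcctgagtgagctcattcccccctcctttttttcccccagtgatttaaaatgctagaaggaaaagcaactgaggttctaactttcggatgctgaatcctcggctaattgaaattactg
Dlg4, chr11:70018355-70018604: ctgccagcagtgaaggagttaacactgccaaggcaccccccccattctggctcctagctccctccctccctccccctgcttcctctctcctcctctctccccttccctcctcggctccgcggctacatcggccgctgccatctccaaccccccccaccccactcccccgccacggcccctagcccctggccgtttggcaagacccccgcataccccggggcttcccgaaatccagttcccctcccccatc

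The Homer1 window holds 3 copies of TGACGT, a motif found at least once in 6.47% of all 32851 promoter windows of this length, and the windows of the other members hold none. The Shank3 window holds 4 GC boxes, which occur in 32.7% of all windows, and its GC content is 82.4% against a median of 52.4% over all windows. The Homer1 window has 62.4% GC, the Dlg2 window 45.2% and the Dlg4 window 68.0%, and neither of the last 2 holds a GC box. Windows not shown can differ: another Dlg4 window, with 56.8% GC, holds a GC box, and another Homer1 window holds no TGACGT. Transcripts spanned a wide range as well. The longest protein-coding transcript has 62.4% GC in Shank3 and 61.4% in Shank1, 55.0% in Shank2, between 43.8% and 52.0% in the Dlg genes and in Dlgap1, and 36.9% in Homer1. A motif match describes the letters of the window only.

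All members were measured deeply. Library totals of the 11 grouped mice ran from 31745630 to 45142355 estimated counts, and the counts of a single member ran from 2534 (Homer1, lowest mouse) to 49513 (Dlg4, highest mouse). The summed level of the 9 members was between 2221 and 2848 CPM (estimated counts scaled to library size with edgeR's TMM factors) in every mouse. No 2 libraries agreed within sampling noise. Genes that mark amygdala nuclei were detected in every mouse, and Rspo2, Etv1, Prkcd and Cdh9 averaged 12.0, 69.3, 13.6 and 37.4 CPM. Markers of other cells moved between the groups, and their values stand beside the group comparison.

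Per kb of annotated exon, Dlg4 (PSD-95, the best-known scaffold of mature synapses) had the highest level, 56.8 ± 12.3 CPM per kb (SD, n = 11), and exceeded the next gene in 11 of 11 mice. Shank1 (34.3 ± 4.80) and Dlg3 (32.8 ± 1.82) followed, and Shank1 was the higher of these in only 6 of 11 mice. Dlgap1 (21.8 ± 1.34), Dlg2 (18.1 ± 2.90), Shank2 (16.8 ± 1.73) and Shank3 (15.3 ± 1.79) came next, each above its successor in 7 to 9 of 11 mice, so the order of these neighbors was not the same in every animal. Dlg1 (12.4 ± 1.33) was below Shank3 in 9 of 11 mice, and Homer1 was the lowest in every mouse (6.94 ± 0.716).

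**Figure D1:**
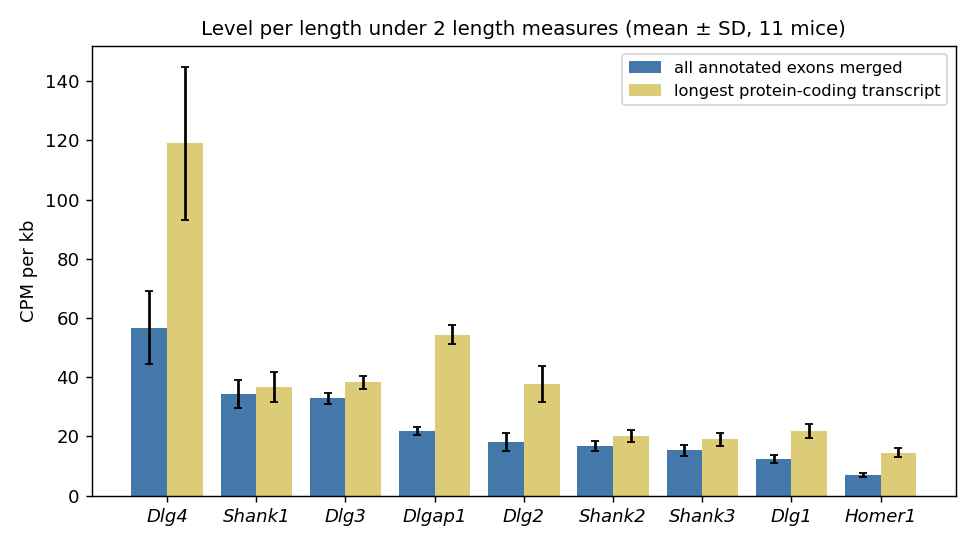
Level of each member in CPM per kb, as the mean over 11 mice with its SD. The length is all annotated exons merged (blue) or the longest annotated transcript of any type (yellow, named protein-coding in the legend). Dlg4 was the highest and Homer1 the lowest under both lengths, but Dlgap1 moved to second place under the latter.

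The length used decided much of the middle order. With the longest annotated transcript of any type as the length, Dlg4 had 119 ± 25.7 CPM per kb. Dlgap1 had 54.4 ± 3.34 and exceeded Dlg3 (38.2 ± 2.12) in 11 of 11 mice. Dlg2 and Shank1 then changed places in 5 of 11 mice, at means of 37.8 and 36.7. Which transcripts were expressed is not visible in counts per gene, so neither length is exact.

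Shares within the families were taken from the levels in CPM per kb of merged exon, not from reads, and so depend on that length too. Shank1 took 51.6% ± 2.11 (SD, n = 11) of the summed level of the 3 Shank genes, Shank2 25.4% ± 1.45 and Shank3 23.0% ± 1.34. Among the 4 Dlg genes, Dlg4 took 46.8% ± 5.93, Dlg3 27.5% ± 2.72, Dlg2 15.3% ± 3.06 and Dlg1 10.4% ± 1.20. The share of Dlg2 in the summed CPM per kb of the Dlg genes was 18.4% ± 3.59 in less anxious, 14.8% ± 1.13 in anxious and 13.4% ± 2.53 in more anxious mice, and that of Dlg4 42.7% ± 5.51, 46.3% ± 4.44 and 50.4% ± 6.56. For both genes the ranges of the groups overlapped.

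The first comparison asked whether any member differed among the 3 anxiety groups. Across all genes, edgeR's quasi-likelihood F-test with the first principal component (PC1) as a covariate called 2 of 26963 genes, 0.00742%, at an adjusted p under 0.05, and 0 of the 9 members. At an unadjusted p under 0.05, 1 member stood beside 6.35% of all genes. It was Dlg2, with an unadjusted edgeR p of 0.0134 and an adjusted p of 0.645. All genes include many at lower levels than the members, each of which had a mean above 10 CPM. Among the 10354 genes with a mean of at least 10 CPM, 879 stood at that threshold. This is a larger share than among all genes. Between more and less anxious mice, the same fit called 0 members and 0.0445% of all genes. At an unadjusted p under 0.05 in that contrast stood 3 members, against 8.84% of all genes, with 2 members and 5.21% of all genes higher and 1 member and 3.62% of all genes lower in more anxious mice. Here too, the shares were larger among the 10354 genes than among all genes, in both directions. Without mouse 12, 1 member stood at that threshold. For this and all later fits with a mouse left out, the share of all genes at that threshold was not counted. DESeq2's tests of the same model also called 0 members, while its likelihood ratio test over all groups called 187 genes. No member had groups whose values did not overlap, a pattern shown between more and less anxious mice by 10.0% of the 15891 genes with a mean of at least 1 CPM. It was shown by 5.37% of them between anxious and less anxious mice and by 2.35% between more anxious and anxious mice.

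**Figure D2:**
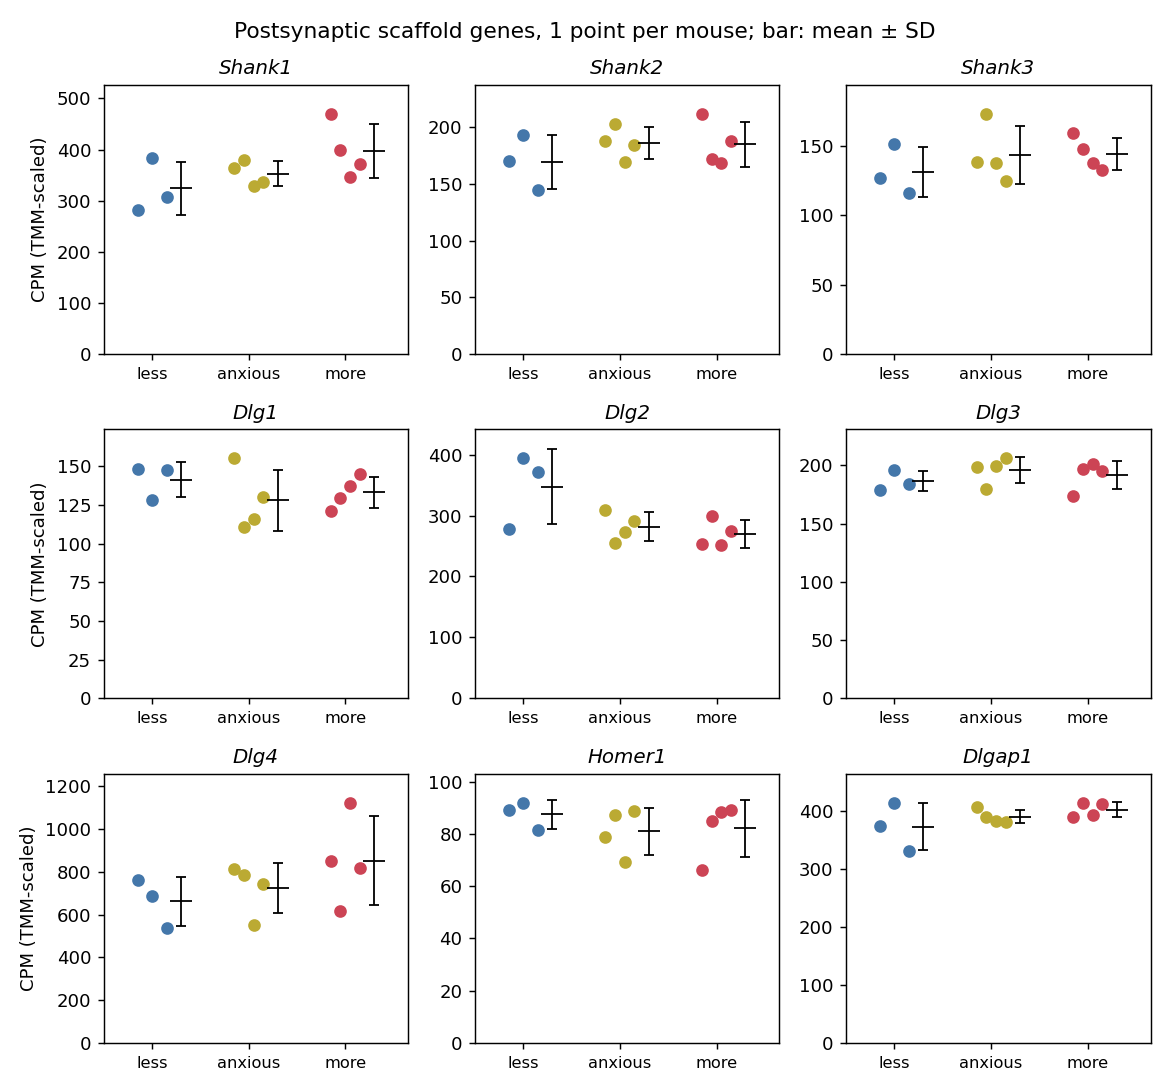
TMM-scaled CPM of each member, 1 point per mouse in 3 less anxious (blue), 4 anxious (yellow) and 4 more anxious mice (red), with the mean and SD of the group beside the points. The values of every member overlap between the groups, and Dlg2 shows 2 less anxious mice, at 371 and 394 CPM, above all others.

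Among the Shanks, the master scaffolds of the lattice, Shank1 had 282, 383 and 307 CPM in the less anxious mice 3, 7 and 12. It had 365, 380.5, 328 and 337 CPM in the anxious mice 1, 4, 8 and 11, and 470.1, 400.1, 346 and 372 CPM in the more anxious mice 2, 6, 9 and 10. Mouse 2 was the highest and mouse 3 the lowest, and the outer groups overlapped because mouse 7 lay above mice 9 and 10. The log2 difference of more against less anxious mice was 0.26 (SE 0.12, 95% interval 0.012 to 0.51), a fold of 1.20, with an unadjusted edgeR p of 0.0416 and an adjusted p of 0.540.

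Shank2 and Shank3, whose loss in mice alters social behavior, differed less. Shank2 ranged from 145 to 193 CPM in less anxious, 169 to 203 in anxious and 168 to 212 in more anxious mice, a log2 difference of 0.12 between the outer groups with an interval of -0.13 to 0.37. Shank3 ranged from 116 to 151, 125 to 173 and 132 to 159 CPM, a log2 difference of 0.10 with an interval of -0.14 to 0.35. These intervals leave room for a change of up to 1.29-fold in Shank2 and 1.27-fold in Shank3.

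Among the Dlg genes, Dlg2 (PSD-93) had 277, 394 and 371 CPM in the less anxious mice 3, 7 and 12. It had 309, 255, 274 and 290.4 CPM in the anxious mice 1, 4, 8 and 11, and 253, 300.0, 252 and 274 CPM in the more anxious mice 2, 6, 9 and 10. Mice 7 and 12 were above every other mouse, while mouse 3 lay within the range of the more anxious group. Dlg2 was lower in more than in less anxious mice by a log2 difference of -0.39 (SE 0.12, interval -0.64 to -0.13), a fold of 0.765, with an unadjusted edgeR p of 0.00572 and an adjusted p of 0.336.

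Dlg4 had 762, 685 and 537 CPM in the less anxious mice 3, 7 and 12. It had 812, 783, 553 and 745 CPM in the anxious mice 1, 4, 8 and 11, and 848, 615, 1122 and 817 CPM in the more anxious mice 2, 6, 9 and 10. Mouse 9 was the highest by far and mouse 6 lay within the less anxious range. The log2 difference was 0.41 (SE 0.16, interval 0.068 to 0.75), a fold of 1.33, with an unadjusted edgeR p of 0.0222 and an adjusted p of 0.465. It was 0.27 without mouse 12 and 0.68 without mouse 7.

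The ratio of Dlg4 to Dlg2 CPM joins the 2 members with the largest differences. It was 1.45 to 2.75 in less anxious mice (median 1.74), 2.02 to 3.07 in anxious mice (median 2.60) and 2.05 to 4.45 in more anxious mice (median 3.17). Mouse 3 had a ratio of 2.75, above that of mouse 6 (2.05), so the outer groups overlapped here too. Since the genes were picked for their differences, the ratio was not tested.

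The other Dlg genes differed little. Dlg1 (SAP97), which takes part in receptor trafficking, ranged from 128 to 148 CPM in less anxious, 111 to 155 in anxious and 121 to 145 in more anxious mice, a log2 difference of -0.041 with an interval of -0.26 to 0.18. Dlg3 (SAP102), the family member prominent in young synapses, was the steadiest member, with a coefficient of variation of 5.54% over 11 mice, a range of 174 to 206 CPM and a log2 difference of 0.041 with an interval of -0.15 to 0.24. The coefficient of variation of the others ran from 6.14% in Dlgap1 to 21.6% in Dlg4.

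Homer1 had 89.1, 91.9 and 81.3 CPM in the less anxious mice 3, 7 and 12. It ranged from 69.1 to 88.6 CPM in anxious and from 66.1 to 89.2 in more anxious mice, and the log2 difference was -0.074 with an interval of -0.33 to 0.18. The value sums the long forms, which cross-link the lattice, and the short form Homer1a, which neuronal activity induces and which uncouples it, so a shift between the forms would not be seen. Dlgap1 ranged from 332 to 414 CPM in less anxious, 382 to 408 in anxious and 390.0 to 415 in more anxious mice, with a log2 difference of 0.10 and an interval of -0.10 to 0.30.

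**Figure D3:**
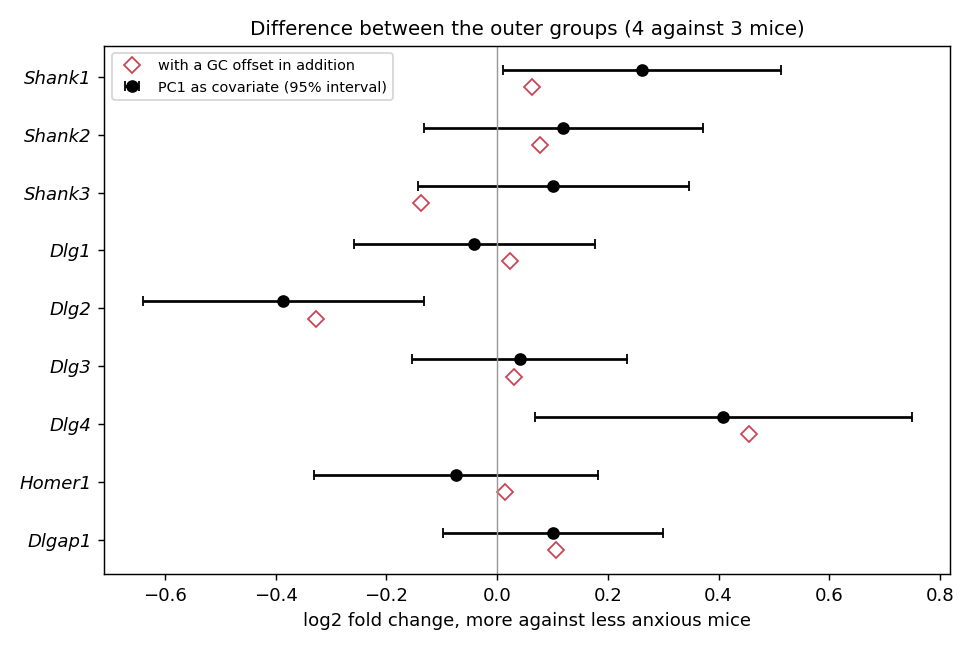
Log2 fold change of more against less anxious mice for each member, with PC1 as a covariate (black, with its 95% interval) and with an offset for transcript GC content in addition (red diamonds). The interval excludes 0 before adjustment for Shank1, Dlg2 and Dlg4, and the GC offset moves Shank1 from 0.26 to 0.063.

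The median log2 difference of the 9 members was 0.10, with 6 higher and 3 lower, beside a median of 0.0036 over all genes. Libraries differed in how levels depended on GC content. The Spearman correlation across genes between transcript GC and a library's log2 deviation from the gene's mean ran from -0.40 to 0.17 in less anxious, -0.24 to 0.26 in anxious and -0.074 to 0.35 in more anxious mice. With a GC offset in the fit, the log2 difference of Shank1 was 0.063, with an unadjusted edgeR p of 0.628, and that of Shank3 was -0.14, while Shank2 had 0.077. Dlg1 and Homer1 also turned, to 0.023 and 0.015. Dlg2 stayed at -0.33, with an unadjusted edgeR p of 0.0158 and an adjusted p of 0.529, and Dlg4 at 0.45, with an unadjusted p of 0.0141 and an adjusted p of 0.511. The size of the Shank1 difference and the directions of Shank3, Dlg1 and Homer1 thus changed with the GC offset, and the values of Dlg2 and Dlg4 changed by less than 1 SE. Libraries also differed in how levels depended on the genomic span of genes. That Spearman correlation was 0.065 to 0.19 in less anxious, -0.19 to 0.13 in anxious and -0.14 to -0.035 in more anxious mice. Dlg2 has the longest span of the members (1973 kb) and Dlg4 the shortest (30.6 kb), while Dlgap1, with 852 kb, was at 0.10. The part of gene span in the members' values was not tested.

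Cell type markers also differed, in a contrast where 8.84% of all genes stood at an unadjusted p under 0.05. All 5 neuron markers (Rbfox3, Snap25, Syt1, Nefl, Stmn2) were higher in more than in less anxious mice, 3 of them at an unadjusted p under 0.05, with summed levels of 3701 to 4093 CPM in less, 3612 to 4212 in anxious and 3780.5 to 4935 in more anxious mice. All 5 astrocyte markers were lower, 1 of them at that threshold (Slc1a3, log2 difference -0.50), with sums of 1063 to 1298, 894 to 1047 and 795 to 1011 CPM. All 5 oligodendrocyte, 5 microglia and 3 endothelial markers were lower too, with 1, 1 and 2 at that threshold. The sums of astrocyte, of endothelial and of pituitary markers did not overlap between more and less anxious mice. Oligodendrocyte sums were 2521 to 3242, 1513 to 3029 and 1991 to 2752 CPM, and microglia sums 197 to 240, 182 to 219 and 167 to 206 CPM. Endothelial sums were 80.4 to 122, 53.3 to 112 and 54.4 to 75.1 CPM. Pituitary sums, low in the outer groups, were 1.19 to 2.79, 0.981 to 52.1 and 0.0227 to 0.269 CPM. Of 3 markers of excitatory neurons, 2 were higher, with Slc17a7 at that threshold (0.44). All 3 markers of inhibitory neurons, 4 of amygdala nuclei, 5 of striatal-type neurons and 2 of the pituitary were lower, none at that threshold. Both markers of oligodendrocyte precursors were lower, 1 at that threshold, and 4 of 5 choroid plexus markers, 2 at that threshold. No marker list had a called gene, and no marker was at 0 in any mouse except the pituitary genes Prl and Gh. The part of these markers in the members' values was not tested. In bulk tissue, fewer cells of a type and less RNA per cell cannot be told apart.

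Other genes of the synapse were counted from lists. Of 20 other postsynaptic density genes, 15 were higher and 5 lower in more anxious mice (median 0.11), and 2 stood at an unadjusted p under 0.05, both higher. These were Dlgap3, the Dlgap family member linked to repetitive grooming (168 ± 20.1 CPM in less, 193 ± 41.2 in anxious and 243 ± 26.3 in more anxious mice, log2 difference 0.53, edgeR's adjusted p in that contrast 0.321), and Homer2 (44.5 ± 7.03, 42.9 ± 4.75 and 56.7 ± 2.92 CPM, 0.35, adjusted p 0.411). Of 17 active zone scaffolds on the presynaptic side, 10 were higher and 7 lower (median 0.023), with 2 higher and 1 lower at the unadjusted threshold. The latter was Cask, a presynaptic relative of the Dlg family (83.3 ± 10.4, 63.2 ± 8.43 and 57.8 ± 11.6 CPM, -0.50), and Unc13b, a priming factor, was at 0.47.

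Of 5 inhibitory postsynaptic scaffold genes, 1 was higher and 4 lower (median -0.092). The one that was higher was Insyn1 (115 ± 8.62, 131 ± 11.3 and 147 ± 8.13 CPM, 0.33, edgeR's adjusted p 0.289). Lhfpl4, which helps to anchor GABA receptors, had the next lowest p and was at -0.22. Of 11 activity-regulated genes, 10 were higher and 1 lower (median 0.46), and 2 passed the unadjusted threshold, Egr4 (9.13 ± 4.12, 15.8 ± 4.65 and 20.9 ± 1.21 CPM, 1.18, adjusted p 0.174) and Junb (1.10). No gene of any of these lists was called.

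The second comparison used the behavior of each mouse in place of the groups. Time in the open arms, low values of which are read as anxiety, ran from 2.33% (mouse 2) to 29.2% (mouse 6). Both mice carry the more anxious label, so label and open-arm time did not match in mouse 6. Mouse 6 also had the highest light time (46.6%) and light distance (41.9%) of the grouped mice. In edgeR's fit of open-arm time as a standardized number, 0 of 26963 genes (0%) and 0 of the 9 members were called, and 2 members and 5.84% of all genes had an unadjusted p under 0.05. Dlg4 was lower in mice with more open-arm time, by -0.22 on the log2 scale per SD of 9.49 percentage points (SE 0.064), with an unadjusted edgeR p of 0.00338 and an adjusted p of 0.634. Dlg2 was higher, by 0.14 per SD (SE 0.054), with an unadjusted edgeR p of 0.0206 and an adjusted p of 0.754. Without mouse 7 or without mouse 12, 1 member stood at the unadjusted threshold.

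**Figure D4:**
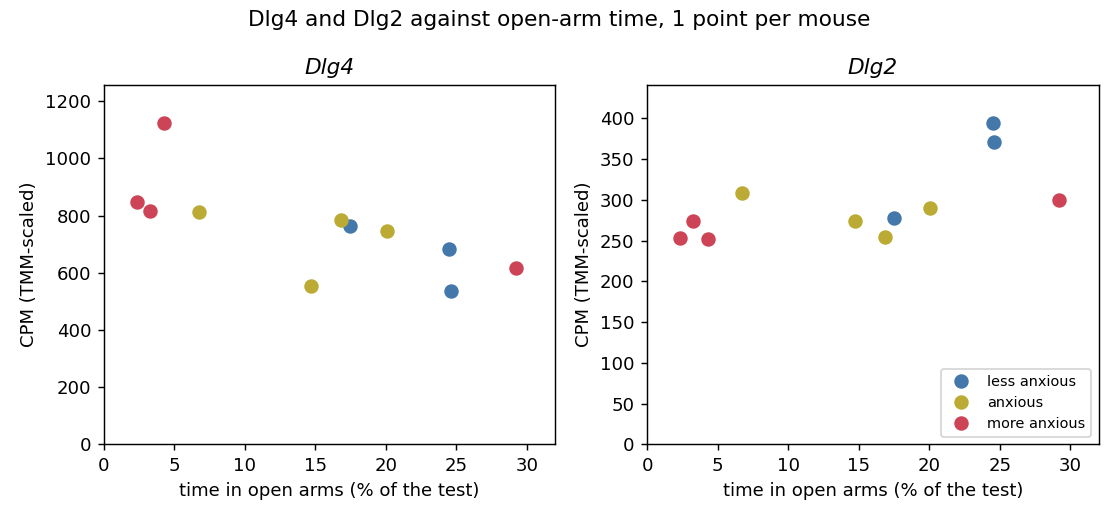
TMM-scaled CPM of Dlg4 (left) and Dlg2 (right) against the percent of time in the open arms, 1 point per mouse, colored by anxiety group. Dlg4 is highest, at 1122 CPM, in mouse 9 with 4.30% open-arm time, and Dlg2 is highest in mouse 7 with 24.5%.

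The 3 mice with the least open-arm time, mice 2, 10 and 9 at 2.33%, 3.25% and 4.30%, held the highest 3 Dlg4 values. Over the 11 mice, Dlg4 had r = -0.71 (Pearson on log2 CPM, permutation p = 0.0126) and rho = -0.82 (Spearman, permutation p = 0.00357), and r = -0.72 without mice 2 and 10, the 2 farthest from the median open-arm time. Dlg2 had r = 0.62 (permutation p = 0.0401) and rho = 0.71 (permutation p = 0.0182), and r = 0.56 without those mice. These are raw p-values among 9 relations, and the adjusted values over all genes are those above.

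The other members had slopes between -0.060 and 0.050 per SD of open-arm time, each with a 95% interval that includes 0. Shank1 had r = -0.28 (permutation p = 0.405) and rho = -0.17 (p = 0.616), which turned to r = 0.14 without mice 2 and 10. Shank2 had r = -0.41 (permutation p = 0.216), rho = -0.35 (p = 0.301) and r = -0.15 without them. Shank3 had r = -0.14 (permutation p = 0.690), rho = -0.23 (p = 0.503) and r = -0.032 without them. Dlg1 had r = -0.12 (permutation p = 0.707), rho = 0.027 (p = 0.945) and r = -0.20 without them. Dlg3 had r = 0.087 (permutation p = 0.797), rho = 0.12 (p = 0.732) and r = -0.22 without them. Homer1 had r = 0.34 (permutation p = 0.308), rho = 0.23 (p = 0.504) and r = 0.21 without them. Dlgap1 had r = -0.24 (permutation p = 0.508), rho = -0.091 (p = 0.797) and r = -0.14 without them. None of these relations was detectable in 11 mice.

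Over all 7 measures, 0 of 63 relations between a member and a measure were called, and 9 of 63 (14.3%) had an unadjusted p under 0.05, with adjusted p-values of 0.427 and above for all 63. The share of all genes at that unadjusted threshold lay between 3.55% and 8.05% by measure. The measures overlap in what they record and the members covary, so the 63 relations are not independent.

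For the total number of arm entries, 3 members stood at the unadjusted threshold, against 6.97% of all genes. Dlg4 had the lowest p, with -0.20 per SD, an unadjusted edgeR p of 0.0131 and an adjusted p of 0.606. Shank1 and Shank2 were both at -0.11 per SD. Over the 11 mice, Dlg4 had r = -0.65 (permutation p = 0.0329) and rho = -0.75 (permutation p = 0.00990). Without mice 1 and 2, the farthest from the median, r was -0.79. Without mouse 12, 0 members stood at the unadjusted threshold and the Dlg4 slope was -0.15, with an unadjusted edgeR p of 0.0719, and without mouse 2, 1 member stood there.

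For time and distance in the light compartment, no member was called, beside 0.00742% and 0% of all genes, and none reached the unadjusted threshold, beside 3.55% and 5.80%. Dlg4 had the lowest p in both, at -0.14 per SD for light time and -0.15 for distance, with unadjusted edgeR p-values of 0.0951 and 0.0597. Its r was -0.41 and -0.48 (permutation p = 0.207 and 0.133), and -0.39 and -0.36 without the 2 mice farthest from the median of each measure. Without mouse 9, the slopes were -0.049 and -0.068, with unadjusted edgeR p-values of 0.507 and 0.336. Without mouse 8, 1 member stood at the unadjusted threshold for light time. For distance, 1 member stood there without mouse 1, 3, 7 or 8, and 2 without mouse 6.

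In the social interaction test, the ratio of time at the stranger's box to time in the zone around it was scored over 3, 5 and 10 min. For the 3-min ratio, which 10 mice have, 0.0150% of all genes were called, and 2 members and 7.65% of all genes stood at the unadjusted threshold. Dlg2 was at -0.16 per SD (SE 0.050) and Dlg4 at 0.18, and Dlg2 had an unadjusted edgeR p of 0.00693 and an adjusted p of 0.427. Dlg2 had r = -0.74 (permutation p = 0.0143) and rho = -0.75 (permutation p = 0.0174), and r = -0.74 without mice 3 and 9. Without mouse 7, the Dlg2 slope was -0.10, with an unadjusted edgeR p of 0.0739. Without mouse 6, 7, 9 or 12, 1 member stood at the unadjusted threshold.

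For the 5-min and the 10-min ratio, 0.0111% and 0.0223% of all genes were called, and Shank1 was the only member at the unadjusted threshold, beside 6.56% and 8.05% of all genes. Shank1 was at -0.15 per SD of either ratio. Its unadjusted edgeR p was 0.00867 for the 5-min ratio (adjusted 0.607) and 0.00913 for the 10-min ratio (adjusted 0.463). Its r was -0.71 with both ratios (permutation p = 0.01525 and 0.0174) and its rho -0.60 and -0.65 (permutation p = 0.0566 and 0.0369). Without mice 2 and 3, r was -0.27 and -0.28, so these relations rest on those mice. Mouse 2 had the highest Shank1 level and the lowest ratios, and mouse 3 the lowest level and the highest ratios. Without mouse 3, the Shank1 slopes were -0.094 and -0.091, and 0 members stood at the unadjusted threshold for either ratio. For the 5-min ratio, 0 members stood there without mouse 2 as well, where the slope was -0.099, and 3 without mouse 12, and for the 10-min ratio 2 without mouse 12.

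**Figure D5:**
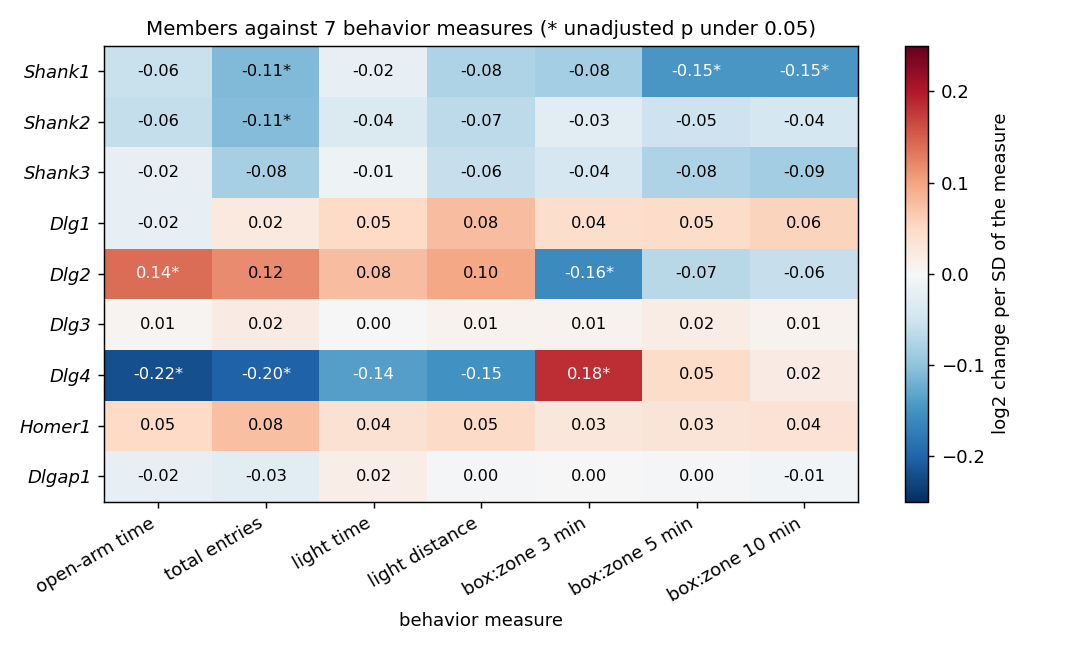
Log2 change of each member (rows) per SD of each behavior measure (columns), blue for negative and red for positive, with an asterisk at an unadjusted edgeR p under 0.05. The 9 asterisks lie on Shank1, Shank2, Dlg2 and Dlg4, and the rounded values of Dlg3 do not exceed 0.02.

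The remaining question was how the members varied with each other and with other genes over the 11 mice, which is given as a description. The Shanks varied together, at r = 0.74 (Shank1 with Shank2), 0.75 (Shank1 with Shank3) and 0.77 (Shank2 with Shank3) on log2 CPM. Dlgap1 had r = 0.56 to 0.64 with them. Dlg2 and Dlg4 had r = -0.56, and the most negative pair was Shank3 and Dlg1 at -0.70. The values of a mouse come from 1 library, and the members at both ends of this pair differ in transcript GC, 62.4% against 43.8%. Shank3 and Homer1 differ more, with 36.9% in Homer1, and had r = -0.16. The part of GC content in these correlations was not tested.

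The genes most like each member were sought among 9952 other protein-coding genes with a mean of at least 10 CPM. Shank1 went most closely with Zbtb7a (r = 0.91), Shank2 with Ski (0.88) and Mcur1 (0.87), and Shank3 with Smox (0.93) and Ski (0.92). Dlg1 was closest to St8sia1 (0.94) and Kcnd2 (0.91), Dlg2 to Sik2 (0.92) and Degs1 (0.91), Dlg3 to Kif3c (0.91) and Rac1 (0.91), and Dlg4 to Sbf1 (0.95) and Atl1 (0.90). Homer1 was closest to Gemin8 (0.89) and Cnksr2 (0.88), and Dlgap1 to Ptp4a1 (0.90) and Ipmk (0.88). Each r is the highest of 9952 values over 11 mice, so values of this size are given as an order only.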

How the data were processed

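Bilateral amygdala mRNA was sequenced with stranded libraries and single-end reads of 75 bp. Per the methods, reads were trimmed with cutadapt, aligned to mm10 with STAR for quality control, quantified with Salmon and collapsed to genes with tximport. The authors deposited estimated counts (expected counts) as whole numbers, without normalization, for 47729 genes and 12 mice, totalling 31745630 to 45142355 per grouped mouse. Tool versions, annotation release and the strand setting of the counting are not given in the sources used here, so reads from antisense or overlapping genes may be included (Shank1, Shank2, Shank3, Dlg2 and Dlgap1 overlap such genes, Dlg3 and Dlg4 do not). The lowest mean chi-square per gene over the 66 pairs of libraries was 17.5. Groups and behavior values came from the labels. Each library is 1 mouse, and all were sequenced in 1 run.

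From the counts, edgeR 4.0.16 (R 4.3.3) fitted groups with TMM factors, robust quasi-likelihood and the PC1 score of DESeq2's variance-stabilized counts (20.2% of the variance) as covariate, for the 26963 genes whose counts summed to 10 or more over 11 mice, and each of 7 behavior measures without covariate. p-values were Benjamini-Hochberg adjusted over all genes, and 0.05 was the threshold. DESeq2 1.42.0 was an alternative. Log2 CPM used a prior count of 2. Correlations used 100000 two-sided permutations (scipy 1.17.1). Lengths and GC content came from GENCODE M21 (GRCm38), which matched 99.1% of the genes. The procedures were tested on simulated data.

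The members and lists were chosen with earlier results of these data known. Named genes were the 9 members, the 2 most similar genes of each (1 gene is not reported here), the 2 of each synaptic list with the lowest p, and cell type markers. For measures other than open-arm time, the member with the lowest p was described. The alternatives covered size factors, count filters, the robust option, the covariate, group order, a GC offset, ranks, mouse 5 and each mouse left out.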

Additional observations from a re-analysis of the deposited data

How the results depend on the processing

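No member was called in any of 172 checks, 20 for each of the 2 group tests and 132 for the behavior measures, the reported fits included. The 2 group tests were read from the same 20 fits. With group order as a number they were 1 test. No paired analysis was possible because the labels give the groups no shared replicate number, litter or batch. The number of genes called over all groups depended on the fit: 2 as reported, 9 with no filter beyond 1 read, 0 with at least 1 CPM in at least 3 mice, 1 without the robust option, 0 without the covariate, 22 with group order as a number and 187 with DESeq2's likelihood ratio test, and 0 to 4 with each mouse left out. The cause was not tested. With a GC offset, the log2 difference between the outer groups turned to -0.14 in Shank3, 0.023 in Dlg1 and 0.015 in Homer1, and the open-arm slope of Shank3 to 0.017. The open-arm slope of Dlg1 turned to 0.0028 with ranks and to 0.020 with PC1 as a covariate. With each mouse left out, the log2 difference ran from -0.073 to 0.00055 in Dlg1 and from -0.13 to 0.036 in Homer1, and the open-arm slope from -0.047 to 0.00015 in Dlg1, -0.017 to 0.018 in Dlg3, -0.043 to 0.0044 in Dlgap1, -0.10 to 0.0038 in Shank1 and -0.039 to 0.0093 in Shank3. In Dlg2, the log2 difference ran from -0.50 to -0.31 and the slope from 0.10 to 0.16, and in Dlg4 from 0.27 to 0.68 and from -0.24 to -0.16. Their adjusted p over all alternatives was 0.107 to 0.715 (Dlg2) and 0.246 to 0.806 (Dlg4) between the groups, and at least 0.511 and 0.206 for open-arm time.

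The number of members with an unadjusted p under 0.05 was 3 between the outer groups and 1 to 3 with each mouse left out (1 without mouse 12). It was 2 for open-arm time, 1 with mouse 5 included and 1 to 2 with each mouse left out (1 without mouse 7 or mouse 12). For light distance it was 0, but 1 with no filter, with PC1 as a covariate or with a GC offset, and 0 to 2 with each mouse left out. For the 3-min ratio it was 2, but 1 with PC1 as a covariate, and 1 to 2. For the 10-min ratio it was 1, but 0 with a GC offset, and 0 to 2. It was 0 to 4 for total entries, 0 to 1 for light time and 0 to 3 for the 5-min ratio. The share of all genes at that threshold was counted in the reported fits only, so the other counts have no background beside them. With the longest transcript as the length, levels in CPM per kb were 119 for Dlg4, 54.4 for Dlgap1, 38.2 for Dlg3, 37.8 for Dlg2, 21.7 for Dlg1, 20.1 for Shank2, 19.1 for Shank3 and 14.6 for Homer1. Depth did not limit the members, each with at least 2534 estimated counts in every grouped mouse.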

Other observations

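Mouse 5, which the labels give no anxiety state, entered no comparison between groups. On a scale set over all 12 mice, it had 404 CPM of Dlg2, above the range of 252 to 394 in the other mice, and 100.1 CPM of Homer1, above their range of 66.2 to 92.0. Its Dlg4 level of 598 CPM lay low in the range of 537 to 1123, and its Shank1 level of 323 CPM within 282 to 470.5. Shank2 (187 CPM), Shank3 (123), Dlg1 (151), Dlg3 (195) and Dlgap1 (402) were within the range of the others as well. A read fell on 23768 genes in this library, against 26378 to 28196 in the others, and its correlation between transcript GC and level was -0.42, below that of every other mouse.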
